A study of Homo sapiens with 4 samples.

Results

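Gene expression in the Nalm-6 culture labelled as overexpressing actin-related protein 8 (Arp8 OE) was compared with that in wild-type cells (WT). Nalm-6 is a human pre-B leukemia cell line, and Arp8 is a subunit of the INO80 chromatin remodeling complex. Both cultures were labelled as treated with 20 uM heme for 12 hours, and they made up 2 of the 4 samples of the series. The other 2 arrays came from cells in which the gene for Arp5 or Arp8 was disrupted (Arp5 KO and Arp8 KO), and their values are set beside those of Arp8 OE where they bear on them. For these knockouts the labels disagreed on heme: titles, protocol and design gave it for both, whereas the treatment field gave no heme for either and the source field gave none for Arp5 KO alone. How Arp8 was overexpressed, from which promoter, and whether the culture was 1 clone are not given in the sources used here. Each group had 1 array, so no difference was checked against another culture and no test was made.

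Total RNA was hybridised to 1-colour Agilent arrays with 41000 probes other than controls. A level is the log2 signal of a probe minus log2 of the 75th percentile of its array, so 0 is the 75th percentile and 1 unit is a doubling. Differences between Arp8 OE and WT were taken over the 22155 probes that were well above background on both arrays. Of these, 16791 carried a gene symbol, for 11310 genes, and a gene's value is the mean over its probes. All 4 arrays lay on 1 slide with the same scan time, and no spot was saturated. The SD of a log2 difference between 2 arrays, taken from probes printed 10 times per array, was 0.08 at the median, 0.17 for dim probes (mean level below -2) and 0.08 for probes at level 0 or above. It covers the spots of an array and not the spread between cultures.

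As background, cells short of oxygen stabilise the alpha subunits of the hypoxia-inducible factors (HIF). The factors raise genes of glucose uptake, glycolysis, mitophagy and blood vessel growth through sites with the core ACGTG or GCGTG. Heme acts on another branch: it removes the repressor BACH1 from antioxidant genes, to which NRF2 then binds, and HMOX1, which encodes the enzyme that degrades heme, is the classic target. ATF4 and CHOP raise stress genes when translation is slowed, while the unfolded protein response and the heat shock response supply chaperones. Lists of genes for these pathways and for other processes were compared, 50 in all.

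The label was checked first. ACTR8, which encodes Arp8, was measured by 2 probes, and neither was higher on the Arp8 OE array. The first probe stood at -1.02 in WT, -1.01 in Arp8 OE, -1.11 in Arp5 KO and -1.55 in Arp8 KO. The other stood at 0.25, 0.23, 0.01 and -0.44 in the same order. The differences of Arp8 OE from WT were 0.02 and -0.01, both within the spread between spots, and the label Arp8 OE is therefore used only as a name. Whether these 2 probes would detect RNA from the construct is not given in the sources used here. The values therefore do not show whether Arp8 was overexpressed. ACTR5, which encodes Arp5, differed by -0.28. The 16 measured subunits of the INO80 complex had a median difference of -0.01 and none was over 2-fold different. The lowest were UCHL5, a deubiquitinase of the complex, at -0.48 and the ATPase RUVBL1 at -0.32. All 11 pre-B markers, among them CD79A, VPREB1 and IGLL1, were well above background on every array. Of the T cell, myeloid and erythroid markers, 1 of 5, 2 of 5 and 2 of 6 genes were well above background in Arp8 OE. Of the epithelial and fibroblast markers, 2 of the 4 genes with a probe, KRT8 and KRT18, were well above background on every array. Their brightest probes stood at -0.44 and -2.31 in WT and at -0.18 and -1.64 in Arp8 OE.

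Over the 22155 probes, 386 were over 2-fold higher in Arp8 OE than in WT (1.74%) and 233 were over 2-fold lower (1.05%). Over the 11310 genes, 150 were over 2-fold higher (1.33%) and 116 lower (1.03%). The median difference of all genes was -0.02, and 5300 were above 0 (46.9%) and 6010 below 0. The counts of each gene list below are to be read beside these shares. Among 4095 genes with 2 or more measured probes, all probes were over 2-fold higher for 8 (0.195%) and over 2-fold lower for 14 (0.342%). Of the 70 such genes with at least 1 probe over 2-fold higher, 53 had all probes above 0, and of the 65 with at least 1 probe over 2-fold lower, 52 had all probes below 0. Probes beside a spot that was bright on 1 array alone made up 27.4% of those measured, and without them 226 probes were higher and 130 lower.

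**Figure D1:**
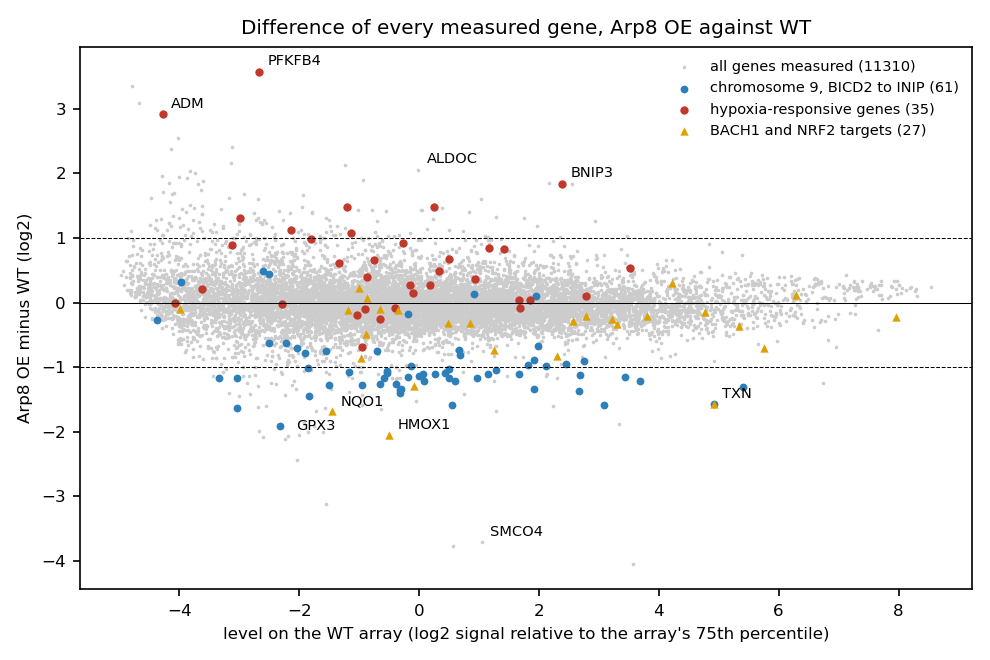
Each point is 1 of the 11310 measured genes, with its level on the WT array on the horizontal axis and the difference Arp8 OE minus WT (log2) on the vertical axis; dashed lines mark 2-fold. The hypoxia-responsive genes reach 3.58 (PFKFB4), the BACH1 and NRF2 targets reach -2.05 (HMOX1), and the 61 genes of chromosome 9 lie around -1.11 at all levels.

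Hypoxia-responsive genes were higher in Arp8 OE as a list. Of 47 genes listed, 35 were measured; 8 of these were over 2-fold higher and none over 2-fold lower, against 1.33% and 1.03% of all genes. After normexp background correction 5 were over 2-fold higher, without VEGFA, ENO2 and MXI1, and with probes beside a bright spot left out 6 of 32 were. Their median difference was 0.48, and 27 of 35 were above 0, against 5300 of all 11310 genes (46.9%). In Arp5 KO and Arp8 KO the medians of the same genes were 0.04 and -0.04. The array of WT is shared by these comparisons. With Arp5 KO in place of WT as the reference the median for Arp8 OE was 0.33, and without a filter on dim probes it was 0.27.

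PFKFB4, a kinase and phosphatase that sets the level of the glycolytic activator fructose 2,6-bisphosphate, had the largest difference of the list. Its probe stood at -2.67 in WT, 0.91 in Arp8 OE, -2.31 in Arp5 KO and -2.43 in Arp8 KO. The Arp8 OE array was 11.9-fold above WT, a log2 difference of 3.58, and the 3 other arrays lay within 0.35 of each other. ADM, which encodes the vasodilator peptide adrenomedullin, was 7.56-fold higher, at -1.36 in Arp8 OE against -4.28 in WT. Its 10 spots on the Arp8 OE array ranged from -1.55 to -1.22 and the 9 usable spots on the WT array from -4.53 to -4.08, so they did not overlap. ADM stood at -3.88 in Arp8 KO and was not well above background in Arp5 KO.

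The pair BNIP3 and BNIP3L, receptors that mark mitochondria for autophagy, were both higher. BNIP3 stood at 2.39 in WT, 4.23 in Arp8 OE, 2.26 in Arp5 KO and 2.51 in Arp8 KO, a difference of 1.84, and its probe lay beside a bright spot. BNIP3L had differences of 1.62 and 1.33 on its 2 probes. STC2, a secreted glycoprotein, had 1.41 and 1.57, and in both knockouts its mean difference from WT was at most 0.20. For these 3 genes the Arp8 OE array was the high one and the 3 other arrays were close together.

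The 4 probes of VEGFA, the main growth factor of blood vessels, were all higher but unequally, by 0.31, 1.07, 1.17 and 2.68. The probe printed 10 times stood at -2.56 in WT, -1.38 in Arp8 OE, -2.64 in Arp5 KO and -3.05 in Arp8 KO. The largest value came from a probe beside a bright spot. MXI1, an antagonist of MYC, was higher by 1.13 in Arp8 OE and by 0.89 in Arp8 KO, so that gene was not high in Arp8 OE alone. ENO2, the neuronal form of enolase, was higher by 1.08. Just below 2-fold were PDK1 (0.99), a mitochondrial kinase that inhibits pyruvate dehydrogenase, the small ankyrin repeat gene ANKRD37 (0.92) and PFKFB3 (0.90).

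The regulators of the pathway differed less. HIF1A, the oxygen-sensitive subunit, was measured by a probe printed 10 times and stood at -0.16 in WT and 0.12 in Arp8 OE, a difference of 0.27. EPAS1, which encodes the alpha subunit of HIF-2, differed by -0.69, the lowest value of the list. The oxygen-sensing hydroxylases EGLN1 and EGLN2 differed by 0.48 and 0.04, VHL by 0.10 and ARNT by -0.02. CA9 and EGLN3, which are strong HIF targets in many cells, were not well above background on either array.

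**Figure D2:**
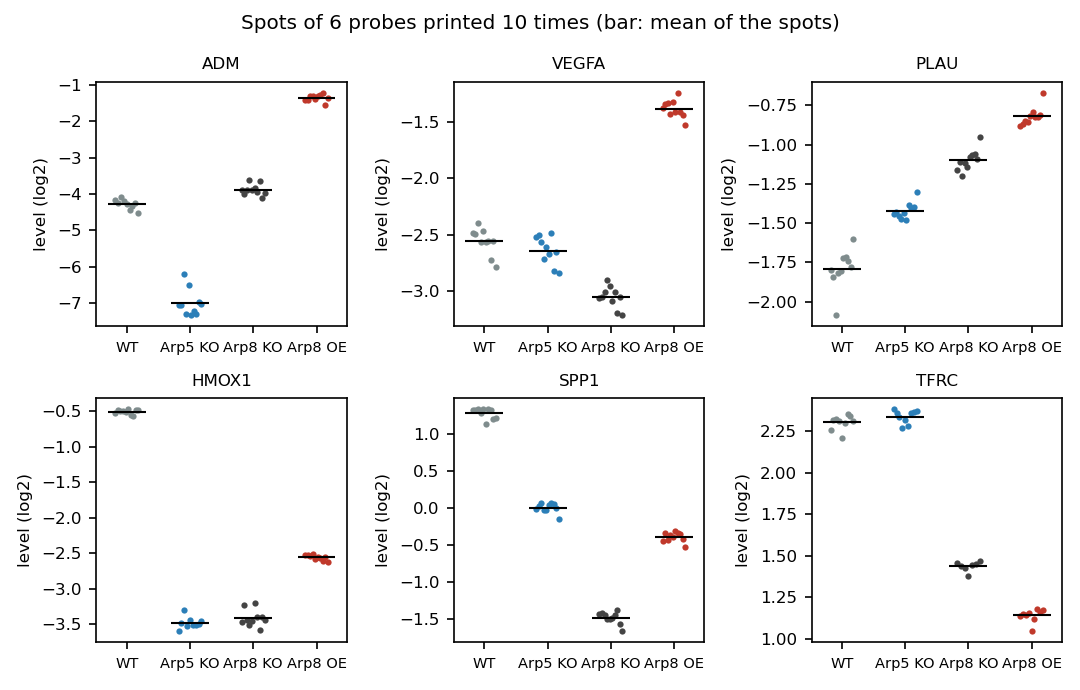
Levels (log2) of the single spots of 6 probes printed 10 times, on each of the 4 arrays; the bar is the mean of the spots. ADM, VEGFA and PLAU lie higher on the Arp8 OE array than on WT, and HMOX1, SPP1 and TFRC lie lower, with no overlap between the spots of the 2 arrays.

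Genes of glycolysis and lactate handling were mostly above 0. Of 25 measured, 22 were above 0, against 46.9% of all genes. Over 2-fold, 3 were higher and none lower, against 1.33% and 1.03% of all genes. The median was 0.23, against 0.06 in Arp5 KO and 0.03 in Arp8 KO. ALDOC, an aldolase form best known from brain, stood at -0.01 in WT, 2.05 in Arp8 OE, 0.73 in Arp5 KO and 1.18 in Arp8 KO, so both knockouts were also above WT. The other 2 were PFKFB4 and ENO2. The glucose transporter SLC2A1 was higher by 0.84 and the hexokinase HK2 by 0.82. The abundant enzymes of the pathway moved little, with LDHA at 0.11, PGK1 at 0.21, ENO1 at 0.19 and GAPDH at 0.06.

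Promoter sequences from RefSeq were searched for 1 form of the HIF core, ACGTG, on both strands of the 250 bases before the start of the gene. A promoter was in the table for 28 of the 35 measured hypoxia-responsive genes, and 13 of these (46.4%) held ACGTG. It was found in 23.6% of the 9184 measured genes with a promoter, in 23.8% of the 101 genes over 2-fold higher in Arp8 OE and in 18.7% of all 27305 promoters in the table. The promoters of BNIP3 and ALDOC hold it, while those of PFKFB4 and ADM do not hold these letters in this window. The other form, GCGTG, was not counted, and the windows of PFKFB4 and ADM both hold it. The core of the antioxidant response element, TGACNNNGC, searched in the same way, was in 7 of the 28 promoters of hypoxia-responsive genes (25%) and in 12.6% of those of measured genes. The promoters of 3 genes over 2-fold higher are printed, 2 that hold ACGTG and 1 that does not, and they were chosen after their values were seen. They run 5′ to 3′ on the strand of the gene, with matches in capitals. The run CACGTG holds ACGTG on both strands and is also the E-box bound by MYC and MXI1, so these motifs overlap.
BNIP3 (GRCh38.p14, chr10:131981924-131982173, minus strand): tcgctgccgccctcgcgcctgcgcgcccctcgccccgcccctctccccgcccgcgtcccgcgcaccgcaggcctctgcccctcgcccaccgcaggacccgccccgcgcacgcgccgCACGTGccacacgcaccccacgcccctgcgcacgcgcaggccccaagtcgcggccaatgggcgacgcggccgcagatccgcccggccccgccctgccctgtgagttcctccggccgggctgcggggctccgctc
ALDOC (GRCh38.p14, chr17:28576896-28577145, minus strand): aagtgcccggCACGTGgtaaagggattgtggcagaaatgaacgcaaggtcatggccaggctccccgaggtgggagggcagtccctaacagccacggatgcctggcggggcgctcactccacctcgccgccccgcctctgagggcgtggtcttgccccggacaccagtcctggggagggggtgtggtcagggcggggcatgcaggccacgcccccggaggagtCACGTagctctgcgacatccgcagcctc
PFKFB4 (GRCh38.p14, chr3:48556804-48557053, minus strand): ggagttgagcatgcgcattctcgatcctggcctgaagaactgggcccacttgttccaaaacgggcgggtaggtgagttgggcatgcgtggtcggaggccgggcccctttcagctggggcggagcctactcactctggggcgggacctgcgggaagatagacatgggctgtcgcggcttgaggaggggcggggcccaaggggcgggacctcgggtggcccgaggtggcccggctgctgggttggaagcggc

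**Figure D3:**
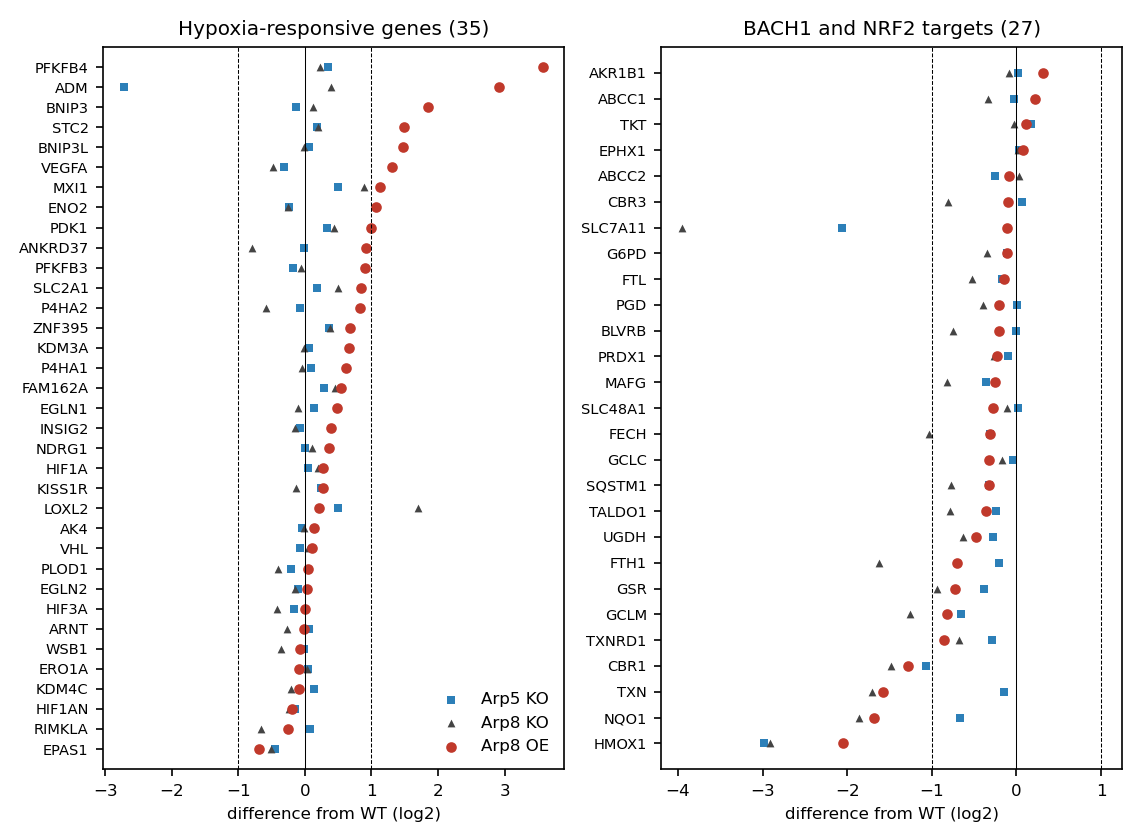
Difference from WT (log2) of each measured member of the hypoxia-responsive genes and of the BACH1 and NRF2 targets, for Arp8 OE (circles), Arp5 KO (squares) and Arp8 KO (triangles); dashed lines mark 2-fold. In the former list 8 circles lie past 1 while the medians of the knockouts are 0.04 and -0.04. In the latter 23 of 27 circles lie below 0. The Arp5 KO value of ADM and the Arp8 KO value of SLC7A11 include probes not well above background.

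ATF4 and CHOP regulators and their stress targets were higher in Arp8 OE as well. Of 22 measured, 20 were above 0 and 3 were over 2-fold higher, against 46.9% and 1.33% of all genes. Their median was 0.51, against -0.16 in Arp5 KO and -0.17 in Arp8 KO. The 3 were DDIT4, an inhibitor of mTORC1, at 1.83, and STC2 and VEGFA, which are also in the hypoxia list. DDIT4 stood at 2.56 in WT, 4.39 in Arp8 OE, 2.72 in Arp5 KO and 2.89 in Arp8 KO. DDIT3, which encodes CHOP itself, differed by 0.68 in Arp8 OE, -0.64 in Arp5 KO and -1.05 in Arp8 KO. CHAC1, a glutathione-degrading enzyme, was higher by 0.90, and ATF4 by 0.38. The amino acid synthesis enzymes, many of which are ATF4 targets, had a median of -0.07 and none past 2-fold.

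BACH1 and NRF2 targets were lower in Arp8 OE as a list. Of 27 measured, 23 were below 0, against 6010 of all 11310 genes. Over 2-fold, 4 were lower and none higher, against 1.03% and 1.33% of all genes. The median was -0.28, against -0.21 in Arp5 KO and -0.75 in Arp8 KO. HMOX1 stood at -0.51 in WT, -2.56 in Arp8 OE, -3.48 in Arp5 KO and -3.42 in Arp8 KO. WT was the high array and Arp8 OE lay between it and the knockouts: it was 4.16-fold below WT and higher than Arp5 KO by 0.92. NQO1, a quinone reductase, stood at -1.45 in WT, -3.13 in Arp8 OE, -2.11 in Arp5 KO and -3.30 in Arp8 KO. The carbonyl reductase CBR1 differed by -1.29.

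The fourth gene was TXN, which encodes thioredoxin, with differences of -1.53 and -1.62 on its 2 probes; it lies in the chromosome 9 stretch described below, and without it the median of the 26 others was -0.27. Smaller differences were those of TXNRD1 (-0.85), GCLM (-0.82), GSR (-0.73) and the ferritin heavy chain FTH1 (-0.70). The 5 probes of FTH1 ran from -0.92 to 0.05. SLC7A11, the cystine transporter, was close to WT in Arp8 OE at -0.11, while its value in Arp5 KO was -2.06. In Arp8 KO it was -3.33 by the probe that was well above background on all arrays. Both of its measured probes lay beside a bright spot.

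The GPX3 probe, for the secreted glutathione peroxidase, stood at -2.19 in WT and -4.26 in Arp8 OE. On both knockout arrays it was not well above background. GSTM3, a glutathione transferase, was well above background by 1 of its 3 probes and on the WT array alone, with a bound of at least 19.8-fold lower in Arp8 OE, and that probe lay beside a bright spot. The 22 genes of heme breakdown and iron handling had a median of -0.17. Of them, 3 were over 2-fold lower and none higher, against 1.03% and 1.33% of all genes. Apart from HMOX1 these were TFRC, the transferrin receptor, and IREB2, an iron-responsive regulator of TFRC mRNA. TFRC stood at 2.30 in WT, 1.14 in Arp8 OE, 2.34 in Arp5 KO and 1.44 in Arp8 KO, with 9 usable spots on each of the WT and Arp8 OE arrays and no overlap between them. IREB2 differed by -1.17 in Arp8 OE, -0.83 in Arp8 KO and -0.23 in Arp5 KO.

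Chaperone genes were lower by small amounts across whole lists. The 33 genes of endoplasmic reticulum chaperones and the unfolded protein response had a median of -0.41. Of them, 29 were below 0 and 1 was over 2-fold lower, against 6010 and 116 of all 11310 genes. That gene was SEC61B, a subunit of the translocon, at -1.31, and it also lies in the chromosome 9 stretch. HSP90B1 differed by -0.90, PDIA4 by -0.85 and HSPA5, which encodes BiP, by -0.73, whereas XBP1, a regulator of the response, was at 0.26. The medians of the same list were -0.27 in Arp5 KO and -0.46 in Arp8 KO. Of 30 heat shock genes, 26 were below 0 and none was past 2-fold, with a median of -0.31, and -0.24 and -0.21 in Arp5 KO and Arp8 KO. HSPA1A, the inducible HSP70, differed by -0.76 in Arp8 OE and by -1.71 and -1.69 in the knockouts. With Arp5 KO as the reference in place of WT, the medians of the 2 lists in Arp8 OE were -0.19 and -0.07.

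Subunits of the proteasome were lower in 36 of 37 cases, none past 2-fold, with a median of -0.30. Of all 11310 genes, 6010 were below 0. PSMD12 was the lowest at -0.65, and the immunoproteasome subunit PSMB8 was the only one above 0, at 0.13. The medians were -0.20 in Arp5 KO and -0.51 in Arp8 KO. Cytosolic ribosomal protein genes were above 0 in 79 of 86 cases, against 46.9% of all genes, with a median of 0.24. The medians of the same genes were 0.04 in Arp5 KO and 0.24 in Arp8 KO. The Arp8 OE value depended on the scaling between arrays and was 0.10 after quantile normalization and 0.14 after cyclic loess. The 2262 brightest genes by mean level had a median of -0.03. The gene RPL22L1, a paralog of RPL22, went the other way at -1.24.

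**Figure D4:**
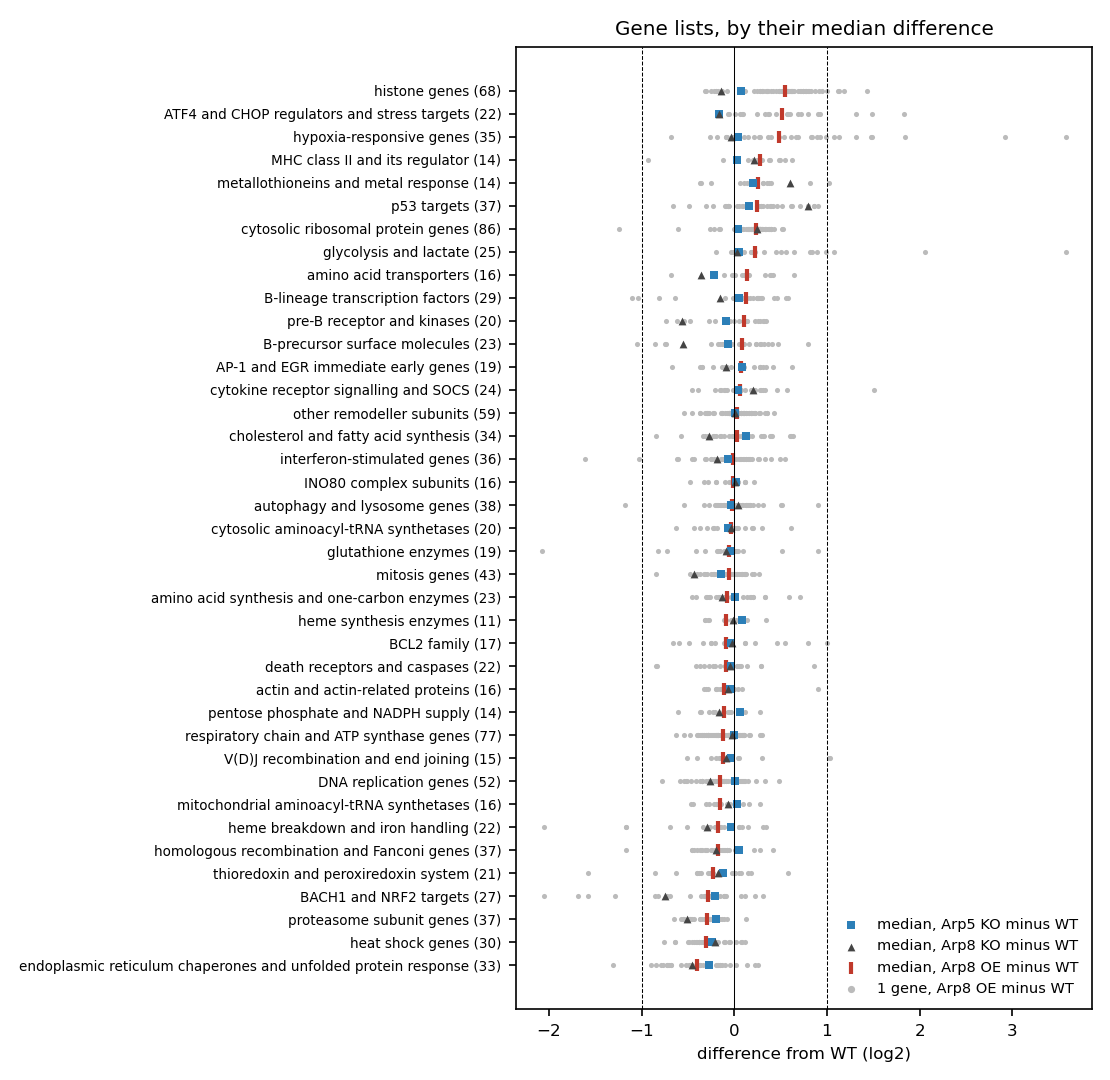
Each row is 1 gene list with 11 or more measured genes (number in brackets): grey points are the differences Arp8 OE minus WT (log2) of its genes, the red bar is their median, and the square and triangle are the medians for Arp5 KO and Arp8 KO. Marker lists and the lists of SCAN domain, BTB domain and other zinc finger genes are left out. Histone genes (0.55), ATF4 and CHOP genes (0.51) and hypoxia-responsive genes (0.48) have the highest medians in Arp8 OE, and endoplasmic reticulum chaperones (-0.41) the lowest.

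The genes over 2-fold lower in Arp8 OE were concentrated on the map. Placed in the RefSeq gene order, 42 of the 435 measured genes of chromosome 9 were over 2-fold lower (9.66%), against at most 1.56% on any other chromosome. Of these, 39 lay in 1 stretch of 61 consecutive measured genes from BICD2 to INIP, whose ends were set by least squares on these differences, so its values are a description. The median difference in the stretch was -1.11, with quartiles of -1.26 and -0.80. Of the 61 genes, 54 were below -0.5 and none was over 2-fold higher. The 39 over 2-fold lower were 33.6% of the 116 genes over 2-fold lower in Arp8 OE, from 0.54% of the 11298 genes placed in order. Outside the stretch, 77 genes were over 2-fold lower.

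Just outside the stretch were LOC100128361 at 0.18 and IPPK at -0.92 before BICD2 (-1.27), and SLC31A2 at -0.20 and FKBP15 at 0.01 after INIP (-1.11). The 20 measured genes before and after the stretch had medians of 0.01 and -0.03, and the rest of chromosome 9 had 0.00. In Arp8 KO the same 61 genes had a median of -1.03 with 31 over 2-fold lower, and in Arp5 KO a median of -0.05 with none. Of the 11237 genes outside the stretch, 372 were over 2-fold lower in Arp8 KO and 144 in Arp5 KO. With Arp5 KO in place of WT as the reference, the stretch in Arp8 OE had a median of -1.11. That value uses the same Arp8 OE array, and Arp5 KO was close to WT here, so it is not a separate check. Against WT the median was -0.89 after normexp background correction, and still -1.11 over the 51 genes that had a probe not beside a bright spot.

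The stretch holds genes with unrelated roles, at low and high levels alike. TXN stood at a mean level of 4.91 in WT, 3.34 in Arp8 OE, 4.77 in Arp5 KO and 3.21 in Arp8 KO. SEC61B stood at 5.40, 4.09, 5.33 and 4.20 in the same order. For both genes, WT and Arp5 KO made a high pair of arrays and Arp8 KO and Arp8 OE a low pair. FANCC, of the Fanconi anemia core complex, differed by -1.16 in Arp8 OE, SMC2, a condensin subunit, by -1.58, NANS, the sialic acid synthase, by -1.59, and the nucleotide excision repair genes XPA and RAD23B by -0.74 and -1.21. The aminopeptidase gene AOPEP was the lowest at -1.91. These were chosen after their values were seen. The 5 genes above 0 were ABCA1 (0.49), CCDC180, GAS2L1P2, CTSV and PALM2AKAP2. Of the 14 genes with all probes over 2-fold lower, 10 lie in the stretch.

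Some probes between BICD2 and INIP gave only bounds. On the WT array alone, 13 probes of 11 genes were well above background, and 2 of these genes, ZNF367 and PALM2AKAP2, also had a probe measured on both arrays; 11 of these probes were so in Arp5 KO and 3 in Arp8 KO. FGD3, a guanine nucleotide exchange factor for CDC42, had a probe at 0.79 in WT and 0.62 in Arp5 KO that was not well above background on the 2 Arp8 arrays, with a bound of at least 48.8-fold lower in Arp8 OE. A probe of ANKS6, a ciliary protein, stood at -0.61 in WT and -0.89 in Arp5 KO and was at least 18.4-fold lower in Arp8 OE. Its other probe was among 5 that were well above background on the Arp8 OE array alone, with bounds in the other direction. These were at least 7.01-fold higher for ANKRD19P, 2.64-fold for PGAP4, 2.34-fold for NIPSNAP3B, 1.79-fold for ANKS6 and 1.32-fold for ACTL7B. The probes of ANKRD19P, PGAP4 and ACTL7B lay beside a bright spot. In 10746 windows of 25 consecutive genes over all chromosomes, the lowest median was -1.17, from TRIM14 to CTNNAL1 in this stretch, and the lowest on any other chromosome was -0.29.

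**Figure D5:**
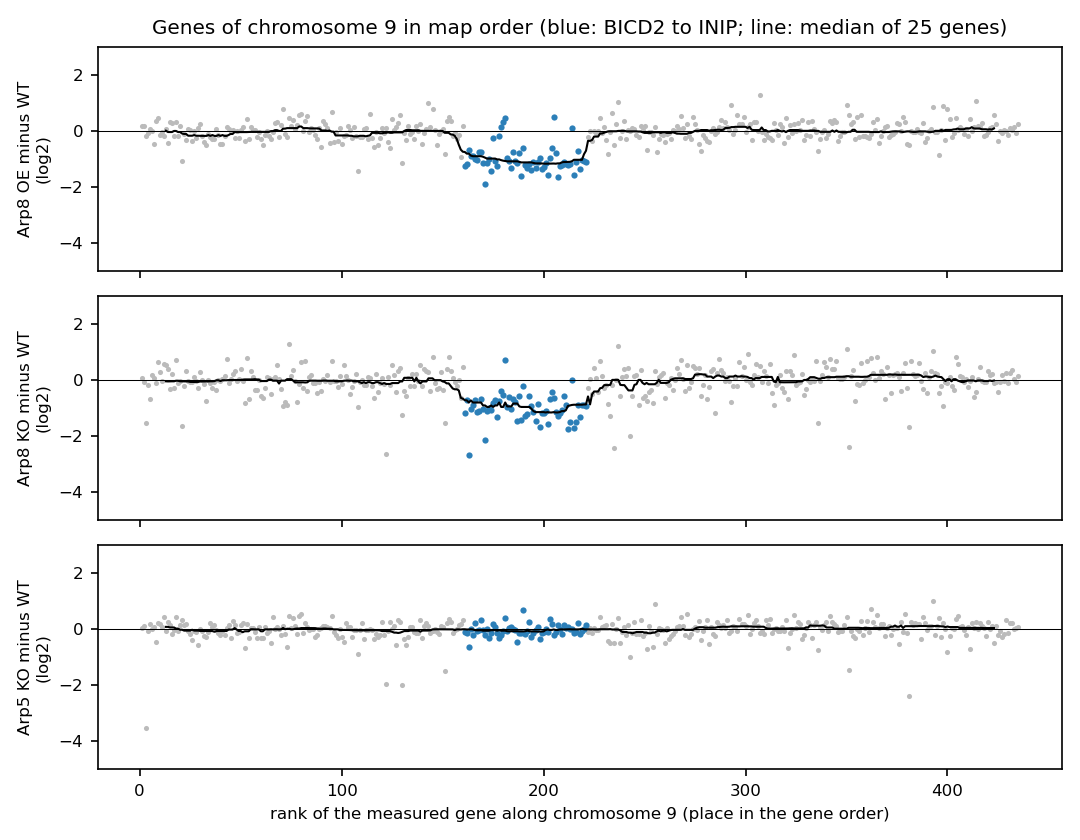
Difference from WT (log2) of the 435 measured genes of chromosome 9 against their rank in the gene order, for Arp8 OE, Arp8 KO and Arp5 KO from top to bottom; blue points are the 61 genes from BICD2 to INIP and the line is the running median of 25 genes. The blue points have medians of -1.11 in Arp8 OE, -1.03 in Arp8 KO and -0.05 in Arp5 KO.

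The highest window lay on chromosome 6, from HMGN4 to H2BC17, with a median of 0.58, and it is a cluster of histone genes. Histone genes had the highest list median in Arp8 OE, 0.55. Of 68, 59 were above 0, 5 over 2-fold higher and none over 2-fold lower, against 46.9%, 1.33% and 1.03% of all genes. After normexp background correction 3 were over 2-fold higher, and with probes beside a bright spot left out 3 of 54 were, both without H2BC21 and H2AC8. With Arp5 KO in place of WT as the reference 2 were, H4C1 and H2BC21. The medians were 0.07 in Arp5 KO and -0.15 in Arp8 KO. The 5 were H4C1 (1.43), H2BC21 (1.18), H4C6 (1.14), H4C9 (1.12) and H2AC8 (1.01), which encode core histones. H4C1 stood at -0.80 in WT, 0.64 in Arp8 OE, -0.67 in Arp5 KO and -0.83 in Arp8 KO, the high array of the 4. The replacement histones H3-3B, H2AZ1 and H2AZ2, whose mRNAs carry poly(A) tails, were at -0.31, -0.19 and -0.20. Most replication-dependent histone mRNAs lack such tails and their genes are nearly alike in sequence, so probes may share signal. DNA replication genes, with 52 measured, had a median of -0.16 and mitosis genes, with 43, a median of -0.06, none past 2-fold in either list.

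Most B-lineage genes differed by less than 2-fold between Arp8 OE and WT. The recombination gene RAG1 was higher by 1.03, a mean over 2 probes, and DNTT, the terminal transferase, by 1.02. The brighter RAG1 probe stood at 4.08 in WT, 5.04 in Arp8 OE, 4.45 in Arp5 KO and 5.06 in Arp8 KO. The dimmer RAG1 probe was also lowest in WT, and it was highest in Arp8 OE. DNTT stood at 2.35 in WT, 3.37 in Arp8 OE, 3.18 in Arp5 KO and 4.12 in Arp8 KO, so WT was the low array. Of 29 B-lineage transcription factors, 22 were above 0 and 2 were over 2-fold lower, against 46.9% and 1.03% of all genes. The 2 were BCL6 and KLF2. BCL6, a transcriptional repressor active in germinal centre B cells, was at -1.10 by a probe beside a bright spot. KLF2 was at -1.86 and -0.22 on 2 probes. Of 23 surface molecules of B precursors, ITGB7 alone was over 2-fold lower at -1.04, against 1.03% of all genes. IL7R and CD22 followed at -0.85 and -0.73. In Arp5 KO 3 of the 23 were over 2-fold lower and in Arp8 KO 7, against 144 and 403 of all 11310 genes. CD22 stood at 0.06 in WT, -0.67 in Arp8 OE, -0.83 in Arp5 KO and -2.52 in Arp8 KO. MHC class II genes had a median of 0.28 with 12 of 14 above 0, against 46.9% of all genes, and none past 2-fold. Their medians were 0.03 in Arp5 KO and 0.22 in Arp8 KO.

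Among 36 interferon-stimulated genes, IFI44 (-1.61) and OAS2 (-1.03) were over 2-fold lower, against 1.03% of all genes, and the median was -0.01. In Arp5 KO 2 of the 36 were over 2-fold lower and in Arp8 KO 7, against 144 and 403 of all 11310 genes. IFI44 stood at 2.23 in WT, 0.62 in Arp8 OE, 1.51 in Arp5 KO and -0.33 in Arp8 KO. The 37 p53 targets had a median of 0.25 with 27 above 0, against 46.9% of all genes. None of them was past 2-fold, the highest being PHLDA3 at 0.91. In Arp8 KO the same list had a median of 0.79 with 12 over 2-fold higher, against 215 of all 11310 genes. Of 17 measured genes of the BCL2 family, the pro-apoptotic BMF alone was over 2-fold higher, at 1.01, against 1.33% of all genes. Among 14 measured genes of metallothioneins and metal response, MT1F alone was over 2-fold higher, at 1.02, against 1.33% of all genes. The median of this list was 0.25 in Arp8 OE, 0.20 in Arp5 KO and 0.60 in Arp8 KO. In Arp5 KO 1 of the 14 was over 2-fold higher and in Arp8 KO 3, against 64 and 215 of all 11310 genes. The autophagy gene GABARAPL1 was at -1.18 in Arp8 OE, while the knockouts were at -1.31 and -2.58.

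Some of the largest single-gene differences lay outside these lists. Of genes with 1 probe not beside a bright spot, ELFN2, a synaptic membrane protein, was the highest after PFKFB4, at 3.10, from a WT level of -4.67 near background. PTPRM, a receptor tyrosine phosphatase, stood at -0.94 in WT, 0.96 in Arp8 OE, -1.62 in Arp5 KO and 0.73 in Arp8 KO, so both Arp8 arrays were high. RUNX1T1, the corepressor ETO, was higher by 1.88 in Arp8 OE, 2.48 in Arp5 KO and 3.34 in Arp8 KO. Genes with all measured probes over 2-fold higher were TFF3, STC2, TRPM2, BNIP3L, BACE2, EMP2, STAT5A and PLEKHG4B. Several were also above WT in a knockout. In Arp5 KO and Arp8 KO, TFF3 differed from WT by 1.80 and 1.04, TRPM2 by 0.80 and 1.05, and PLEKHG4B by 0.70 and 1.04. BACE2 differed by -0.61 and 1.47, and STAT5A by 0.34 and 1.06, while STC2 and BNIP3L were close to WT in both. Both STAT5A probes lay beside a bright spot. A further TFF3 probe, beside a bright spot, was well above background on the WT array alone, with a bound of at least 3.88-fold lower in Arp8 OE. EMP2, an epithelial membrane protein, differed by 1.16 in Arp8 OE, -0.86 in Arp5 KO and -0.35 in Arp8 KO.

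The lowest gene of this kind was SMCO4, a small membrane protein, at 1.04 in WT, -2.67 in Arp8 OE, 0.38 in Arp5 KO and -2.64 in Arp8 KO. The gene was 13.1-fold lower in Arp8 OE, and the 2 Arp8 arrays were alike. Next were the synaptic vesicle gene SV2B (-2.11), GPX3, HMOX1, the zinc finger gene ZIK1 (-2.05), TLCD3A (-2.01) and the potassium channel KCNJ2 (-1.89). In Arp5 KO and Arp8 KO, SV2B differed from WT by -1.76 and -1.95, ZIK1 by -1.43 and -2.98, TLCD3A by -0.36 and -1.27, and KCNJ2 by -0.71 and -1.28. BTBD6 (-4.05) and ZSCAN18 (-3.77) had larger differences, from probes beside a bright spot. The same probes differed by -0.34 and -0.71 in Arp5 KO and by -6.00 and -4.58 in Arp8 KO. SPP1, which encodes osteopontin and was printed 10 times, differed from WT by -1.68 in Arp8 OE, -1.28 in Arp5 KO and -2.77 in Arp8 KO. PLAU, the urokinase gene, also printed 10 times, was higher by 0.97.

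A further 740 probes were well above background on the Arp8 OE array alone and 1287 on the WT array alone, and their differences are bounds. The bound was over 2-fold for 329 of the former (44.5%) and 287 of the latter (22.3%). The largest for Arp8 OE was the tetraspanin gene TSPAN8, at least 9.16-fold higher. For WT, after FGD3, it was S100A10, a calcium-binding partner of annexin A2, at least 20.2-fold lower in Arp8 OE and in both knockouts not well above background.

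The difference between Arp8 OE and WT was last set beside that between Arp8 KO and Arp5 KO, which uses no array of the former. Over 21784 probes well above background on all 4 arrays, Pearson's r across probes was 0.41 and Spearman's rho 0.33. The points share probes, slide and cell line, and probes are not independent replicates. Of probes over 2-fold lower, 82 were so in both, which is 38.7% of the 212 lower in Arp8 OE and 21.8% of the 377 lower in Arp8 KO. Of probes over 2-fold higher, 112 were so in both, 32.3% of 347 and 32.6% of 344. Opposite directions were seen for 6 and 2 probes. Without the stretch on chromosome 9, 49 probes were lower in both. Among these outside the stretch were SMCO4, NQO1, SPP1, KLF2, TNF and IFI44, while PTPRM, CTSF and CD70 were among those higher in both; these were chosen after their values were seen.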

How the data were processed

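Cy3-labelled RNA of 4 Nalm-6 cultures (WT, Arp8 OE, Arp5 KO and Arp8 KO) was measured on 1-colour Agilent arrays, 1 per culture, and the genotype field of the labels gave the groups. The deposited scanner files give intensity on a linear scale, from Agilent Feature Extraction 10.10.1.1 as run by the authors. Their processed signal is background-subtracted and not normalized between arrays. The series matrix, also intensity deposited by the authors, equalled it times 1 factor per array and served as an alternative.

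To get levels, the processed signal was divided by the 75th percentile of its array and log2 was taken. Outlier spots (69 on Arp8 OE, 70 on WT) were left out, spots of a probe were averaged, and a probe counted as well above background if at least 50% of its spots were. Differences used probes that passed on both arrays, except 4 whose every spot was an outlier on an array. A probe well above background on 1 array was given as a bound against the higher of its own level and the array's lowest level well above background. The signal was 647.4 at the 75th percentile on Arp8 OE and 735.1 on WT; the number of arrays limits the precision. Symbols came from RefSeq accessions in a table of GRCh38.p14, for 27210 probes (66.4%). The file headers name hg19, so the table was used for names, chromosomes and gene order. Chromosomes were to come from the scanner files and were taken from this table because the files used hold no such column.

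The members and lists were chosen with earlier results of these data known. Named genes were ACTR8, ACTR5, PFKFB4, HMOX1, GPX3, GSTM3, up to 4 of the highest and 4 of the lowest members past 2-fold of each list, or else the 2 largest, with members needed to say what a list is, and the largest genes by probe agreement, by single probes, by bounds and among probes printed 10 times. A spot counted as beside a bright spot if an adjacent spot, within 20 pixels, exceeded 2-fold on 1 array over each of the 3 others. The stretch on chromosome 9 was found after seeing the data, as the segment of at least 10 genes that by least squares differed most from the rest, with differences clipped at 2.

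Alternatives tried were quantile normalization, cyclic loess, scaling to the median, normexp with an offset of 50 (on the median spot signal, as the files used hold no mean), the series matrix, a floor for dim probes, no filter, probes well above background on all 4 arrays, no probes beside a bright spot, thresholds of 4-fold and 1.5-fold, single probes and Arp5 KO as the reference. Leaving out the stretch was chosen after seeing the data. The summary was tested on simulated data. Python 3.11.15, numpy 2.4.6, pandas 2.3.3, R 4.3.3 and limma 3.58.1 were used.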

Additional observations from a re-analysis of the deposited data

How the results depend on the processing

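No paired analysis was possible because each group had 1 array; the shared replicate number names the only array of a group. No value had a test, so these alternatives show the effect of processing and not the spread between cultures.

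Probes over 2-fold higher and lower, 386 and 233 as reported, were 129 and 82 after normexp, 715 and 520 with a floor for dim probes, 1572 and 1743 with no filter, and 226 and 130 without probes beside a bright spot. They were 39 and 28 at 4-fold and 1390 and 898 at 1.5-fold. Genes with all probes higher and lower, 8 and 14 as reported, were 4 and 4 after normexp, 18 and 40 with no filter, and 64 and 63 at 1.5-fold. The genes with all probes higher were 5 without probes beside a bright spot and 15 against Arp5 KO, and those with all probes lower were 4 without the stretch. Quantile normalization, cyclic loess, median scaling and the series matrix each kept both probe counts within 1.5 times.

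Normexp moved the stretch to -0.89 and an ACTR8 probe to -0.14. The ribosomal median was 0.10 after quantile normalization and 0.14 after cyclic loess. The hypoxia median was 0.27 with no filter, and the glycolysis median 0.32 without probes beside a bright spot.

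With Arp5 KO as the reference, 16 of 43 list medians moved by at least the spot SD of 0.08. Among them, the medians were 0.33 for hypoxia, 0.69 for ATF4 and CHOP, 0.43 for histone, 0.12 for p53, -0.12 for BACH1 and NRF2, -0.066 for heat shock, -0.19 for endoplasmic reticulum, -0.15 for proteasome and -0.10 for INO80 genes, and the ACTR8 probes stood at 0.10 and 0.22. Of single genes 3 reversed: HMOX1 to 0.92, GABARAPL1 to 0.13 and RUNX1T1 to -0.60. The cause of these shifts was not tested. PFKFB4 ranged from 2.87 to 3.61, ADM from 1.65 to 2.93, NQO1 from -1.74 to -1.02, HMOX1 from -2.11 to 0.92, BNIP3 from 1.75 to 1.98 and TXN from -1.62 to -1.43 over the alternatives that measured them.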
